A study of Mus musculus with 16 samples.

Results

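Cytochrome P450 genes outside family 2 were followed in livers of mice with altered ceramide synthase 2 (CerS2), which makes ceramides with very long acyl chains. The members were all genes of the deposited expression table whose symbol is made of Cyp, a number and a letter, leaving out family 2 and the sterol demethylase Cyp51. There were 51 such genes, read by 81 of 60037 probes, and for each gene the probe with the highest mean over all arrays was used. Of these, 44 could be tested, because the scanner software flagged their probe as brighter than background on 4 or more of 16 arrays. They stood among 31484 genes tested in all. Cyp4b1-ps2 and Cyp4f41-ps are transcribed pseudogenes and the other 42 tested members are protein-coding.

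The study compared liver RNA of 16 mice of 4 genotypes, with 4 mice per genotype and 1 array per mouse. The groups were H/A (condition HA), Del (condition delHox), Flox (condition delneo) and WT. All were males, 6 weeks old, on a mixed background of 75% C57BL/6 and 25% SV129. The labels used here do not say which bases or exons the H/A, delHox and delneo alleles change or remove, nor in which cells, so Flox was taken as the engineered line nearest to Del and WT as wild type. The level of Cers2 itself was not analysed here, since none of the probes carries its name.

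Cytochrome P450 enzymes are haem proteins that insert an oxygen atom into lipids, steroids, vitamins and drugs, using electrons passed on by the reductase Por or, in mitochondria, by ferredoxin. In hepatocytes the Cyp3a enzymes clear drugs and hydroxylate steroids and bile acids. Cyp7a1, Cyp8b1, Cyp27a1, Cyp7b1 and Cyp39a1 make bile acids from cholesterol, and the Cyp4 enzymes oxidise the far end of fatty acids and eicosanoids. Cyp1a1 and Cyp1a2 respond to the aryl hydrocarbon receptor, and the Cyp26 enzymes break down retinoic acid. Several of these genes differ between the sexes in mouse liver. Cyp4a12a, Cyp4a12b and Cyp7b1 are known for high levels in males. Cyp3a16, Cyp3a41a, Cyp3a41b, Cyp3a44, Cyp17a1 and Cyp39a1 are known for high levels in females, and the last pair did not rise in the mutant lines.

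The values are log2 signals that had been quantile normalised over the arrays, so a difference of 1 is a doubling. For 6 of 16 samples the scanner file listed for the sample was another array than the one its label names, and the columns of the value table followed the label, so the value table was used throughout. On the arrays 51.6% to 65.2% of spots were well above background. The liver label was borne out by Alb, with log2 values of 16.25 to 16.51 in H/A, 16.18 to 16.39 in Del, 15.99 to 16.30 in Flox and 16.04 to 16.25 in WT. Y-linked Ddx3y, Kdm5d, Eif2s3y and Uty were well above background on 16 of 16 arrays and Xist on 0. Of 14 tested markers of Kupffer cells and macrophages, 10 were higher and none lower in H/A against WT, 8 were higher and none lower in Del against WT, and 8 were higher and 3 lower in Del against Flox. Their summed linear signal was 10792 to 20344 in H/A, 11134 to 12261 in Del, 6108 to 9089 in Flox and 5684 to 9065 in WT. Stellate cell and fibroblast markers were higher for 1, 2 and 6 of 12 tested in the same comparisons and lower for none, with sums of 10885 to 11608 in H/A, 10635 to 13924 in Del, 8863 to 9644 in Flox and 8745 to 11600 in WT. Neutrophil markers were higher for 3, 1 and 1 of 7 and lower for none. Summed cholangiocyte markers were 3048 to 4261 in H/A, 3285 to 4302 in Del, 5100 to 6686 in Flox and 3553 to 5900 in WT, with 2 of 7 called lower and 1 higher in Del against Flox. Of all genes, 7.08% were higher and 2.97% lower in H/A against WT. The shares were 8.85% and 4.38% in Del against WT, and 16.6% and 18.2% in Del against Flox. A single called marker in lists of 7 or 12 is therefore not read as a shift of that cell type. The summed hepatocyte markers were 422476 to 459963 in H/A, 426771 to 451679 in Del, 398789 to 432957 in Flox and 409320 to 436780 in WT. In RNA of whole liver, fewer cells of a type and less RNA per cell cannot be told apart, and the part of these cells in the results was not tested.

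One array stood apart within its group. Flox replicate 1 lay over 1 log2 unit beyond the range of the other 3 Flox arrays for 15 of 44 members, where no other array did so for more than 4 members of its own group. For Cyp7b1, Cyp8b1, Cyp4a12a, Cyp4a12b, Cyp3a16, Cyp3a41a and Cyp3a44 it lay on the side of the mutant arrays. For Cyp21a1, Cyp3a41b and Cyp4a14, not called in Del against Flox, it lay on the side of the mutant means. It did not lie on the side of Del throughout. For Cyp39a1, Cyp3a57, Cyp3a59, Cyp4a30b and Cyp4a32 it lay above the other Flox arrays, while the Del mean was below the Flox mean. In H/A against WT these genes had changes of 0.05, 0.73, 0.68, 0.22 and 0.31 in that order, none called. Without it, 18 members were called in Del against Flox in place of 21, of which 12 were shared. The 9 calls lost were Cyp11a1, Cyp17a1, Cyp1a2, Cyp20a1, Cyp26a1, Cyp4a10, Cyp4a30b, Cyp4b1-ps2 and Cyp4f41-ps, and the 6 gained were Cyp21a1, Cyp27a1, Cyp4a12a, Cyp4a12b, Cyp4f13 and Cyp8b1. Values without this array stand beside the results it moved by over 1.5 times or whose call it changed. H/A replicate 3 held the lowest Cyp4a12a and Cyp4a12b and the highest Cyp7a1 of its group, and WT replicate 2 the lowest Cyp7a1 of all arrays.

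Changes were called in limma where p, adjusted by Benjamini-Hochberg across the whole set of tested genes, was under 0.05, and only called genes are said to have risen or fallen. In H/A against WT, 5 of 44 members rose (11.4%) and 6 fell (13.6%), beside 7.08% of all genes for rises and 2.97% for falls. These rises include Cyp3a41b, whose probe was well above background on 2 H/A arrays and no WT array. In Del against WT, 4 members rose (9.09%) and 9 fell (20.5%), beside 8.85% and 4.38% of all genes. In Del against Flox, 5 rose (11.4%) and 16 fell (36.4%), beside 16.6% and 18.2% of all genes. Those falls include Cyp26a1, whose probe was well above background on no Del or Flox array. The median log2 change of the members was -0.06, -0.38 and -0.48 in these 3 comparisons, beside -0.09, -0.11 and -0.14 for all genes. H/A against WT and Del against WT share the WT arrays, and both Del comparisons share the Del arrays, so their calls are not independent of each other.

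**Figure D1:**
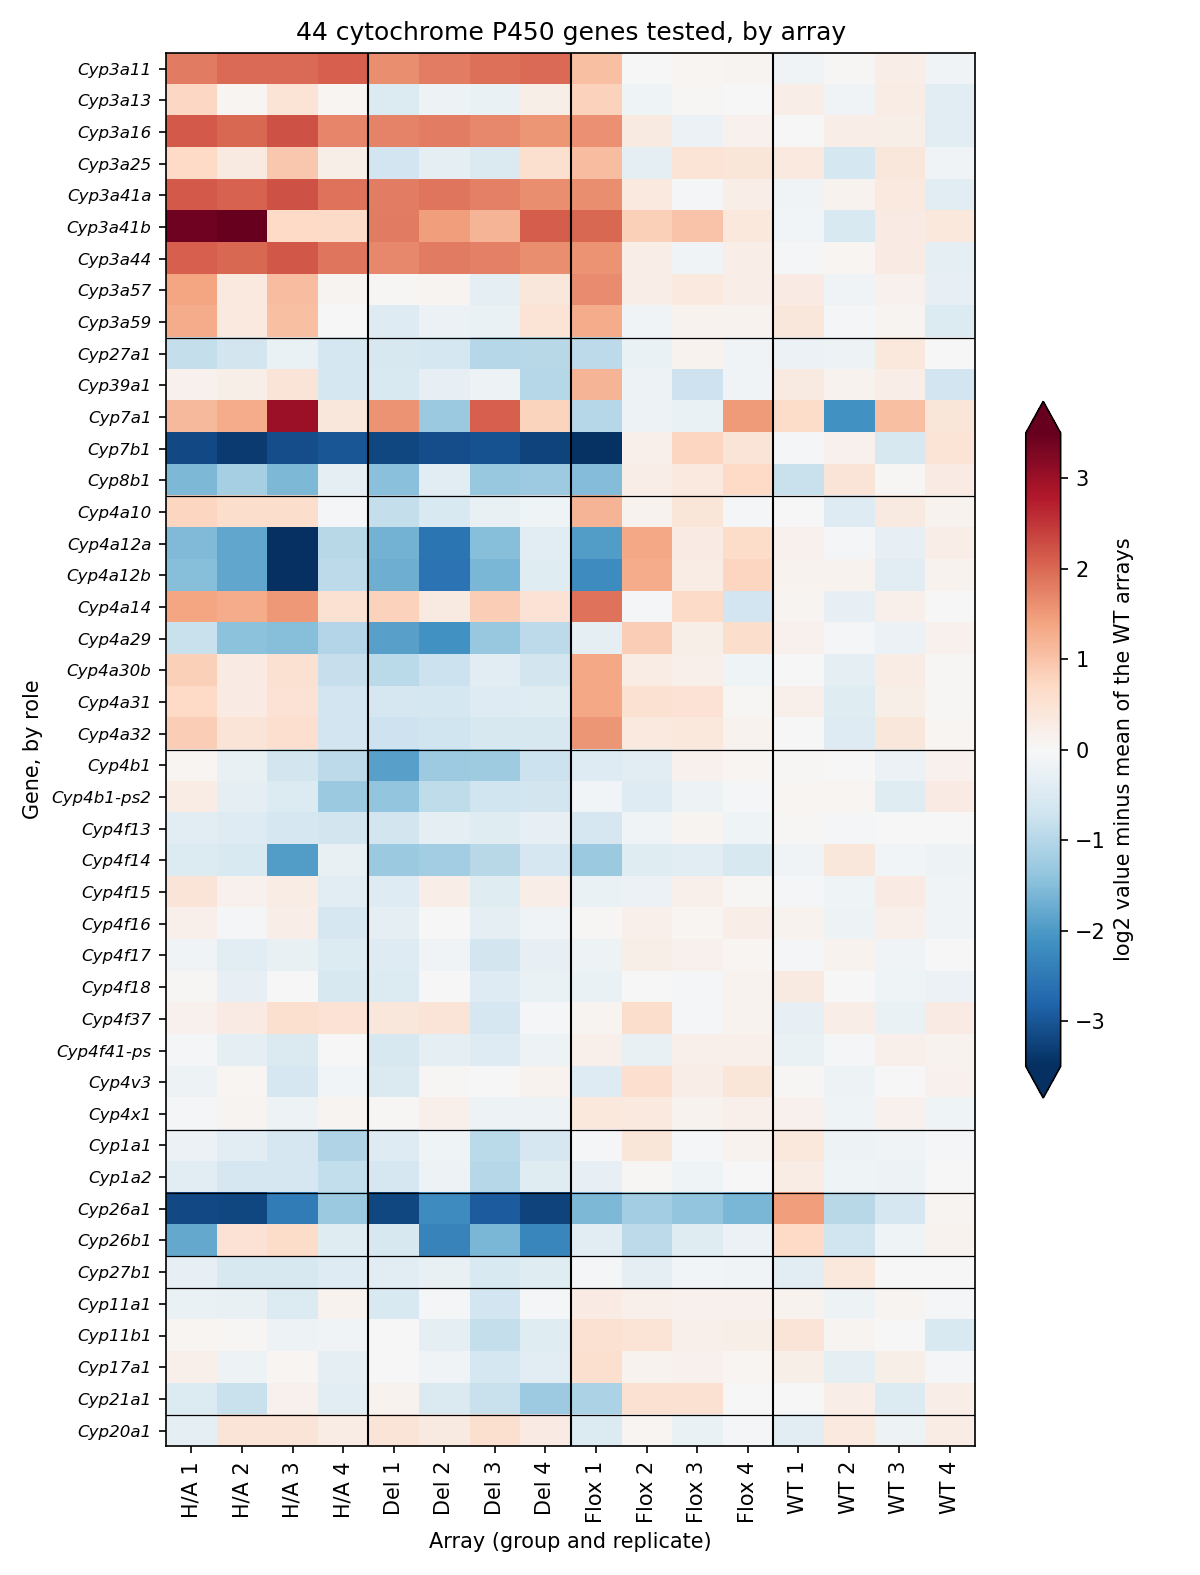
log2 values of the 44 tested genes (rows, grouped by role with lines between groups) on each of 16 arrays (columns), less the mean of the WT arrays. Red is above and blue below that mean, and the colour scale is limited to 3.5 on either side. Cyp3a11, Cyp3a16, Cyp3a41a and Cyp3a44 are red and Cyp7b1 is blue on all 8 mutant arrays and on Flox replicate 1.

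The Cyp3a genes split into members that rose together and members that did not. Cyp3a11, the main drug-metabolising Cyp3a enzyme of adult mouse liver, and Cyp3a16, Cyp3a41a and Cyp3a44, which are known as female-biased, all rose in H/A against WT, in Del against WT and in Del against Flox. Their rise was 3.92-fold to 4.24-fold in H/A and 3.21-fold to 3.56-fold in Del against WT. Cyp3a13, Cyp3a25, Cyp3a57 and Cyp3a59 were called in none of these comparisons.

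Cyp3a11 had log2 values of 15.09, 15.26, 15.26 and 15.37 on the H/A arrays and 14.9, 15.06, 15.21 and 15.26 on the Del arrays, against 14.33, 13.27, 13.35 and 13.37 on the Flox arrays and 13.15, 13.3, 13.51 and 13.14 on the WT arrays. All 8 mutant arrays lay above all 8 Flox and WT arrays, and Flox replicate 1 was the highest of the Flox and WT arrays. The change was 1.97 (95% interval 1.55 to 2.39, adjusted p = 5.65e-05) in H/A against WT, 1.83 (95% interval 1.42 to 2.25, adjusted p = 5.26e-05) in Del against WT and 1.53 (95% interval 1.11 to 1.95, adjusted p = 0.000175) in Del against Flox.

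Cyp3a16 had 11.16, 11.03, 11.24 and 10.73 in H/A and 10.75, 10.81, 10.68 and 10.56 in Del, against 10.62, 9.32, 8.81 and 9.17 in Flox and 8.99, 9.24, 9.22 and 8.61 in WT. The mutant arrays lay above all WT arrays, and Flox replicate 1 lay within the range of the Del arrays. It rose by 2.03 (95% interval 1.42 to 2.64, adjusted p = 0.000712) in H/A against WT, 1.68 (95% interval 1.08 to 2.29, adjusted p = 0.00138) in Del against WT and 1.22 (95% interval 0.61 to 1.83, adjusted p = 0.00726) in Del against Flox.

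Cyp3a41a had 11.88, 11.8, 11.96 and 11.65 in H/A and 11.54, 11.61, 11.51 and 11.36 in Del, against 11.38, 10.07, 9.7 and 9.97 in Flox and 9.63, 9.86, 10.09 and 9.37 in WT, and its changes were 2.08 (95% interval 1.51 to 2.66, adjusted p = 0.000444), 1.77 (95% interval 1.19 to 2.34, adjusted p = 0.000711) and 1.23 (95% interval 0.65 to 1.8, adjusted p = 0.00531) in the same order of comparisons. Cyp3a44 had 11.41, 11.34, 11.51 and 11.2 in H/A and 11.02, 11.15, 11.1 and 10.95 in Del, against 10.91, 9.56, 9.21 and 9.57 in Flox and 9.3, 9.39, 9.62 and 9.02 in WT, and its changes were 2.03 (95% interval 1.47 to 2.59, adjusted p = 0.000446), 1.72 (95% interval 1.16 to 2.29, adjusted p = 0.000715) and 1.24 (95% interval 0.68 to 1.81, adjusted p = 0.00428). For both genes the picture by array was that of Cyp3a16: all mutant arrays above all WT arrays, and Flox replicate 1 beside the Del arrays. Without Flox replicate 1, the change in Del against Flox was 1.78 for Cyp3a11, 1.6 for Cyp3a16, 1.59 for Cyp3a41a and 1.61 for Cyp3a44, each still called. A second Cyp3a41a probe gave 2.15, 1.68 and 1.22 in the 3 comparisons.

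These transcripts are near copies of each other, and the probes can share bases, so single members cannot be told apart with certainty. The 3 probes below are shown because they carry the rise of the female-biased Cyp3a members. Capitals mark the longest run, 26 bases, that the Cyp3a41a and Cyp3a44 probes share. Aligned without gaps, they were identical at 45 of the 47 bases of the Cyp3a41a probe, so these readings are not independent of each other. The Cyp3a16 probe shared no run of at least 15 bases with another member's probe. Whether it also reads Cyp3a41a or Cyp3a44 transcripts was not tested, so its reading may not be independent either.
Cyp3a41a probe: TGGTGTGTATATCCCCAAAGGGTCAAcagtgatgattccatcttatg
Cyp3a44 probe: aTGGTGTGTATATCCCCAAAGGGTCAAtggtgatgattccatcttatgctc
Cyp3a16 probe: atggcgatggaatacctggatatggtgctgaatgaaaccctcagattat

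Cyp3a41b, a copy of Cyp3a41a, was near the lower limit of the array. It read 5.22, 5.46, 2.5 and 2.47 in H/A and 3.62, 3.28, 3.0 and 3.93 in Del, against 3.83, 2.65, 2.81 and 2.18 in Flox and 1.72, 1.27, 2.09 and 2.17 in WT. The probe was well above background on 2 H/A arrays, 1 Del array, 1 Flox array and no WT array. It was called in H/A against WT (adjusted p = 0.0373), where 2 of 4 H/A arrays measured it, so no size is given. With normexp background correction the log2 change was 0.37 and not called. The call was also lost without H/A replicates 1 or 2 or WT replicates 1, 3 or 4 (log2 change 1.58 to 2.22). Cyp3a41b was not called in Del against WT (adjusted p = 0.0768) or in Del against Flox (0.59 (adjusted p = 0.434), and 0.91 without Flox replicate 1).

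The Cyp3a members that were not called had changes of 0.34 (Cyp3a13), 0.54 (Cyp3a25), 0.73 (Cyp3a57) and 0.68 (Cyp3a59) in H/A against WT. In Del against Flox the same 4 genes had -0.36, -0.65, -0.56 and -0.45, and without Flox replicate 1 they had -0.14, -0.43, -0.22 and -0.14. The 95% intervals of Cyp3a25 reached from -0.14 to 1.21 in H/A against WT and from -1.33 to 0.03 in Del against Flox. The 3 probes of Cyp3a57 did not move in 1 direction in H/A against WT (-0.25 to 0.73).

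The called and uncalled Cyp3a genes also differed in their promoter sequence. The windows from 250 bases before to 50 bases after the start of transcription were taken from RefSeq (GRCm38.p6), which gave a window for 34 of the 51 members and for all 9 Cyp3a genes. Cyp3a16, Cyp3a41a, Cyp3a41b and Cyp3a44 shared 92.3% to 98.3% of their bases in pairs, and Cyp3a11 shared 74.7% to 78.3% with them. Cyp3a25, Cyp3a57 and Cyp3a59 shared 90.3% to 96.0% with each other but 56.0% to 60.0% with the 5 genes called in H/A. Cyp3a13 shared 56.3% to 60.0% with any of the other 8. Genes of one cluster that arose by duplication share sequence in any case, so this is a description of these 9 genes.

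The windows of 4 members that rose and of 2 that were not called are shown for comparison, 5′ to 3′ in the direction of transcription. Capitals mark each match to AGNTCA on either strand, the core of the half-sites that nuclear receptors such as the pregnane X receptor bind in pairs, and overlapping matches were all marked. Such a match stood in 46.6% of the 32851 RefSeq promoter windows, so it is common by itself.
Cyp3a11 (chr5:145879805-145880104, minus strand): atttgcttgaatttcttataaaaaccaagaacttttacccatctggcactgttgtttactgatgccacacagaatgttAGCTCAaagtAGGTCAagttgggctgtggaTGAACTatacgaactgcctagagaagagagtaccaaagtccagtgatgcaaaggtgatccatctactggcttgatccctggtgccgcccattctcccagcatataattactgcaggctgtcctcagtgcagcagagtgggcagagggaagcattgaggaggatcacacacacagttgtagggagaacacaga
Cyp3a16 (chr5:145469674-145469973, minus strand): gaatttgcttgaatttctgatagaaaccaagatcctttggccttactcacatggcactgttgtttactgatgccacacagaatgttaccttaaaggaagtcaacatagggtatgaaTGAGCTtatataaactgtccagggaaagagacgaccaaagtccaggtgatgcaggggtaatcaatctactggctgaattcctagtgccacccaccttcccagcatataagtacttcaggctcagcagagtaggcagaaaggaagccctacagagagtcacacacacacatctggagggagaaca
Cyp3a41a (chr5:145720087-145720386, minus strand): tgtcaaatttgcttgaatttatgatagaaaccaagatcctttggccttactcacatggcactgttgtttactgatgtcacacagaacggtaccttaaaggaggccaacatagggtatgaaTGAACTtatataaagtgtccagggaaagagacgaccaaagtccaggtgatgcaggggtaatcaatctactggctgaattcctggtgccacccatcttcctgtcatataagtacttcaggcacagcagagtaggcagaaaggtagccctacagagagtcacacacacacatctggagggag
Cyp3a44 (chr5:145805825-145806124, minus strand): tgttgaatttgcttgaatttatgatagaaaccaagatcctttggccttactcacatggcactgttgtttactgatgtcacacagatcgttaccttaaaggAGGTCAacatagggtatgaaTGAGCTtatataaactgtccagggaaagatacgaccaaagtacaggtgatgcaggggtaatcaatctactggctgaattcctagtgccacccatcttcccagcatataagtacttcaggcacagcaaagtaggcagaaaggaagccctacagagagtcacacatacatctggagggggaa
Cyp3a25 (chr5:146009569-146009868, minus strand): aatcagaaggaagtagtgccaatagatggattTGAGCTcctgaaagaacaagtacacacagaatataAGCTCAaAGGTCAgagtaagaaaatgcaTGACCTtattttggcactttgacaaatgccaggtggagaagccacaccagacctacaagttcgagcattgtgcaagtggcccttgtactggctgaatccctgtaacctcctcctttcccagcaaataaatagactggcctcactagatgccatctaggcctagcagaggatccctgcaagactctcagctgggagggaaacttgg
Cyp3a59 (chr5:146079008-146079307, plus strand): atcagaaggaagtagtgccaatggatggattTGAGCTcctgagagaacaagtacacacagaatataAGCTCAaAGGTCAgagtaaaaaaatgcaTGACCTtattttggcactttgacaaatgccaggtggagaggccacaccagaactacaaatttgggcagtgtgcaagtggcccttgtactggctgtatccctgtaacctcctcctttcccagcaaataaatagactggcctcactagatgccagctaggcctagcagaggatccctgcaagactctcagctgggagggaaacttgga

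A match stood at -142 from the start in Cyp3a11, at -134 in Cyp3a16 and at -130 in Cyp3a41a, Cyp3a41b and Cyp3a44, counted at its first base. Cyp3a11 held 2 more, at -172 and -162, and Cyp3a44 held 1 more, at -150. Cyp3a25, Cyp3a57 and Cyp3a59 held 4 matches each, between -219 and -153. The letters ATTGAT, on either strand, were found in Cyp3a16 at -75 and in Cyp3a41a, Cyp3a41b and Cyp3a44 at -71, and in 7.54% of all windows. They were also found at -223 in Cyp3a57, which was not called. TTCNNNGAA, the core letters of a STAT site, was found in no Cyp3a window and in 8.3% of all windows. A match is a description of the letters and not evidence that a factor binds.

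**Figure D2:**
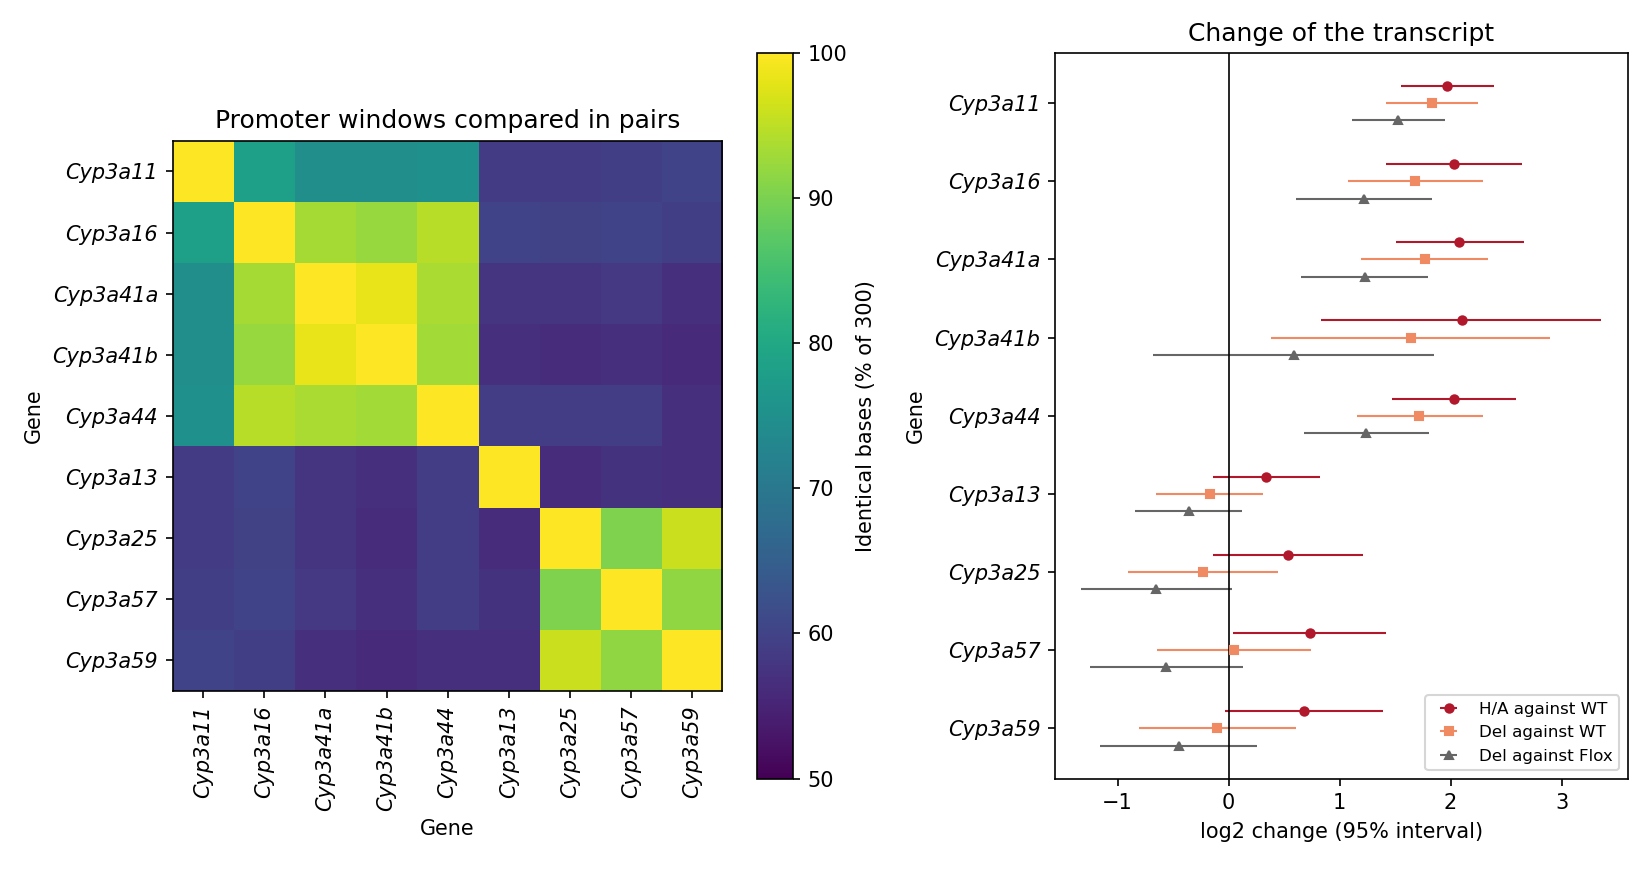
Left, identical bases between the promoter windows of the 9 Cyp3a genes, in percent of the window, for each pair. Right, log2 change with 95% interval of the same genes in H/A against WT (circles), Del against WT (squares) and Del against Flox (triangles). The 5 genes at the top, with 74.7% to 98.3% identity among themselves, are those called higher in H/A against WT. Of these, Cyp3a41b was well above background on 2 H/A arrays and no WT array.

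Among the genes of bile acid and oxysterol metabolism, Cyp7b1 fell in all 3 comparisons and Cyp27a1 in Del against WT. Cyp7b1, the male-biased enzyme that hydroxylates oxysterols on the alternative route to bile acids, had 0.112 times the WT signal in H/A and 0.113 times in Del. Cyp27a1, is the mitochondrial enzyme that opens the alternative route. Cyp7a1, the rate-limiting enzyme of the classic route, Cyp8b1, which sets the share of cholic acid, and Cyp39a1 were called in none of the comparisons.

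Cyp7b1 had 7.17, 6.99, 7.24 and 7.34 in H/A and 7.16, 7.24, 7.3 and 7.1 in Del, against 6.87, 10.53, 11.08 and 10.8 in Flox and 10.29, 10.48, 9.79 and 10.81 in WT. All mutant arrays lay within 6.99 to 7.34, and every Flox and WT array but Flox replicate 1, at 6.87, lay at 9.79 or higher. It fell by 3.16 on the log2 scale in H/A against WT (95% interval -4.52 to -1.79, adjusted p = 0.00699) and by 3.14 in Del against WT (95% interval -4.51 to -1.78, adjusted p = 0.00497). In Del against Flox the change was -2.62 (95% interval -3.99 to -1.26, adjusted p = 0.00899), and -3.6 without Flox replicate 1. A second, dimmer Cyp7b1 probe changed by -3.78, -3.88 and -3.70 in the 3 comparisons. The SD of the Flox group was 1.98 with that array, beside 0.09 in Del, 0.15 in H/A and 0.43 in WT.

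Cyp27a1 had 12.46, 12.64, 13.05 and 12.67 in H/A and 12.72, 12.67, 12.3 and 12.32 in Del, against 12.38, 13.05, 13.4 and 13.17 in Flox and 13.08, 13.11, 13.67 and 13.3 in WT. Both mutant lines lay below all WT arrays, and Flox replicate 1 lay among the mutant arrays. The change was -0.79 (adjusted p = 0.0219) in Del against WT, -0.58 (adjusted p = 0.0801) in H/A against WT and -0.50 (adjusted p = 0.0726) in Del against Flox. A second, dimmer Cyp27a1 probe changed by -1.08, -0.96 and -0.59 in the same order. The call in Del against WT was lost without WT replicates 3 or 4 or Del replicates 3 or 4 (-0.79 to -0.66). Without Flox replicate 1, Del against Flox gave -0.71 and was called, and so was H/A against WT at -0.58.

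Cyp8b1 had 10.55, 10.96, 10.54 and 11.79 in H/A and 10.66, 11.72, 10.79 and 10.85 in Del, against 10.59, 12.33, 12.46 and 12.82 in Flox and 11.34, 12.55, 12.15 and 12.4 in WT. Most mutant arrays lay below most Flox and WT arrays, but H/A replicate 4, Del replicate 2, Flox replicate 1 and WT replicate 1 made the groups overlap. Its changes were -1.15 (95% interval -2.08 to -0.23, adjusted p = 0.0919) in H/A against WT, -1.11 (adjusted p = 0.0965) in Del against WT and -1.05 (adjusted p = 0.0698) in Del against Flox, none of them called. Without Flox replicate 1 all 3 were called, at -1.15, -1.11 and -1.54, and without Del replicate 2 the change in Del against Flox was called at -1.29.

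Cyp7a1 had 10.36, 10.53, 12.23 and 9.63 in H/A and 10.81, 7.92, 11.31 and 10.01 in Del, against 8.24, 9.05, 9.0 and 10.72 in Flox and 9.88, 7.1, 10.27 and 9.65 in WT. Its SD within a group was 1.05 to 1.5, so the change of 1.46 (95% interval -0.26 to 3.18, adjusted p = 0.214) in H/A against WT was within the spread between mice. Del against WT gave 0.79 (95% interval -0.93 to 2.51) and Del against Flox 0.76 (95% interval -0.96 to 2.48), which was 0.42 without Flox replicate 1. Cyp39a1, an oxysterol hydroxylase known as female-biased, had 8.81, 8.85, 9.09 and 8.04 in H/A and 8.11, 8.35, 8.46 and 7.65 in Del, against 9.83, 8.48, 7.93 and 8.54 in Flox and 8.96, 8.78, 8.87 and 7.97 in WT. The groups overlapped, and its changes were 0.05, -0.50 and -0.55 in the 3 comparisons, the last being -0.17 without Flox replicate 1. Cyp46a1, the brain cholesterol hydroxylase, was not tested: it had 4.9, 2.3, 1.36 and 2.86 in H/A and 1.57, 1.9, 2.89 and 1.31 in Del, against 3.29, 3.3, 3.87 and 3.67 in Flox and 2.26, 1.33, 2.93 and 1.76 in WT, and was well above background on 1 H/A array and 2 Flox arrays.

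**Figure D3:**
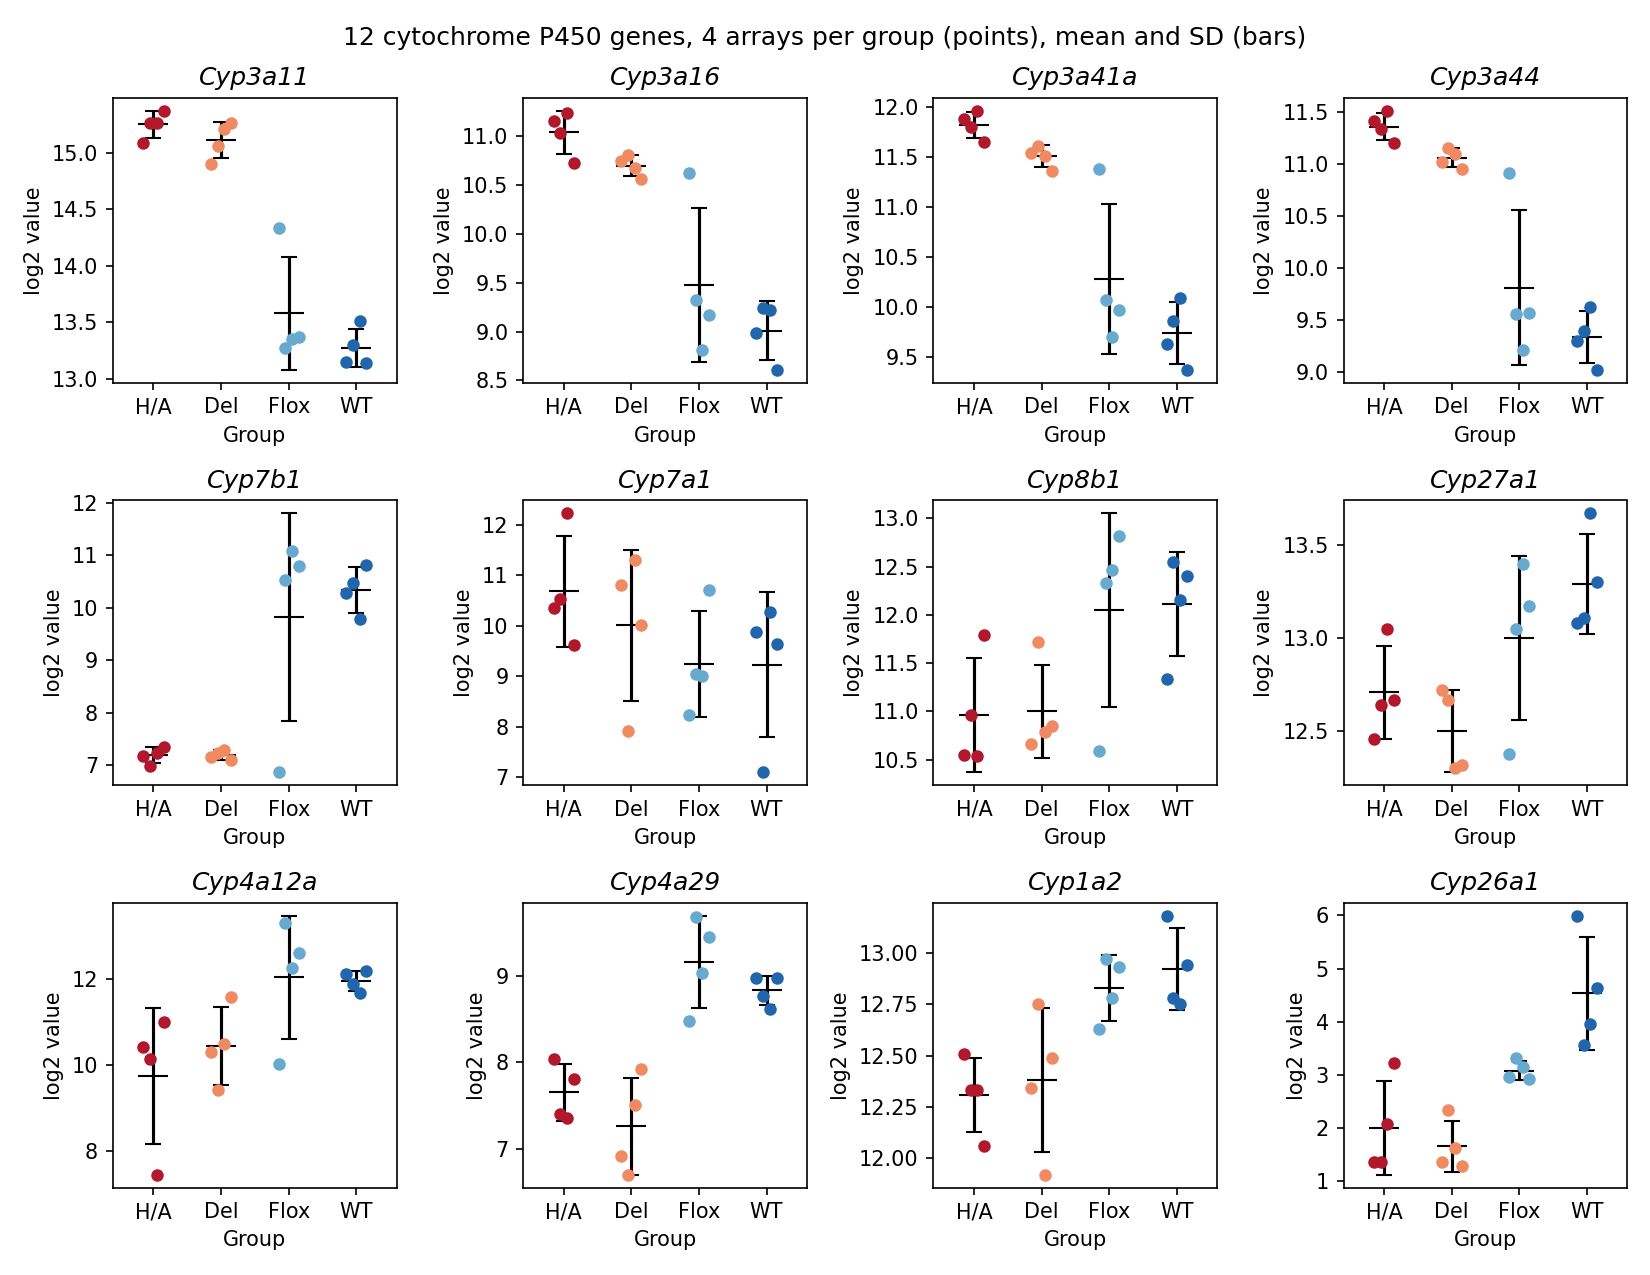
log2 values of 12 genes in the 4 groups, with each array as a point in replicate order from left to right and the mean and SD of 4 arrays as bars. The scale differs between panels and does not start at 0. In the Cyp7b1 panel the 8 mutant arrays lie between 6.99 and 7.34 beside 1 Flox array at 6.87, and the other 7 arrays at 9.79 to 11.08.

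The Cyp4a genes, targets of PPAR alpha that oxidise medium and long fatty acids, did not move as a family. Cyp4a29 fell in all 3 comparisons. Cyp4a10, Cyp4a30b, Cyp4a31 and Cyp4a32 fell in Del against Flox but were not called in H/A against WT or in Del against WT. The male-biased Cyp4a12a and Cyp4a12b had lower means in both mutant lines with wide spread and were not called, and neither was Cyp4a14, unless Flox replicate 1 was left out.

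Cyp4a29 had 8.04, 7.4, 7.35 and 7.81 in H/A and 6.92, 6.7, 7.5 and 7.92 in Del, against 8.48, 9.68, 9.03 and 9.45 in Flox and 8.97, 8.76, 8.62 and 8.97 in WT. No mutant array reached the lowest Flox or WT array, which was at 8.48. The change was -1.18 (95% interval -1.77 to -0.59, adjusted p = 0.0163) in H/A against WT, -1.57 (95% interval -2.16 to -0.97, adjusted p = 0.00193) in Del against WT and -1.9 (95% interval -2.49 to -1.3, adjusted p = 0.000418) in Del against Flox. In H/A against WT the call was lost when H/A replicate 2, H/A replicate 3 or WT replicate 4 was left out (-1.13 to -1.08).

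Cyp4a10 had 13.26, 13.12, 13.12 and 12.45 in H/A and 11.67, 11.99, 12.25 and 12.37 in Del, against 13.71, 12.64, 12.94 and 12.45 in Flox and 12.52, 12.05, 12.83 and 12.64 in WT. Cyp4a31 had 11.37, 10.94, 11.16 and 10 in H/A and 10.07, 10.04, 10.22 and 10.23 in Del, against 12.01, 11.2, 11.16 and 10.69 in Flox and 10.83, 10.24, 10.87 and 10.71 in WT. The Del arrays lay below all Flox arrays for both genes, and the H/A arrays overlapped with WT. In Del against Flox Cyp4a10 changed by -0.87 (95% interval -1.43 to -0.30, adjusted p = 0.0237) and Cyp4a31 by -1.13 (95% interval -1.73 to -0.52, adjusted p = 0.0108). Other Cyp4a31 probes gave -1.11 and -0.33 in Del against Flox.

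Cyp4a30b had 9.69, 9.14, 9.37 and 8.05 in H/A and 7.92, 8.09, 8.47 and 8.2 in Del, against 10.21, 9.11, 9.03 and 8.69 in Flox and 8.84, 8.53, 9.11 and 8.9 in WT. Cyp4a32 had 9.97, 9.54, 9.7 and 8.44 in H/A and 8.37, 8.4, 8.53 and 8.54 in Del, against 10.65, 9.43, 9.47 and 9.22 in Flox and 9.08, 8.66, 9.49 and 9.17 in WT. Here too Flox replicate 1 was the highest Flox array and H/A replicate 4 the lowest H/A array, and all Del arrays lay below all Flox arrays. Cyp4a30b changed by -1.09 (adjusted p = 0.0236) and Cyp4a32 by -1.23 (adjusted p = 0.0128) in Del against Flox. A second Cyp4a32 probe gave -0.66 there. Whether the Cyp4a10, Cyp4a30b, Cyp4a31 and Cyp4a32 probes also read each other's transcripts was not tested, so these falls may not be independent. Without Flox replicate 1 the changes were -0.61 for Cyp4a10 and -0.77 for Cyp4a30b, no longer called, and -0.88 for Cyp4a31 and -0.91 for Cyp4a32, still called. Without Del replicate 1 Cyp4a10 was not called either (-0.73).

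Cyp4a12a averaged 9.74 ± 1.58 in H/A and 10.44 ± 0.90 in Del, against 12.04 ± 1.43 in Flox and 11.96 ± 0.23 in WT (SD, n = 4 each). The H/A arrays reached from 7.44 to 11 and the Flox arrays from 10.01 to 13.31, while the WT arrays lay within 11.68 to 12.18. Its change was -2.22 (95% interval -3.77 to -0.66, adjusted p = 0.0631) in H/A against WT and -1.6 (95% interval -3.15 to -0.05, adjusted p = 0.0934) in Del against Flox. Cyp4a12b gave -2.3 (adjusted p = 0.0753) and -1.61 (adjusted p = 0.122) in the same comparisons. Its probe shared no run of at least 15 bases with that of Cyp4a12a. Whether each probe also reads the transcript of the other gene was not tested, so the readings may not be independent. Cyp4a14 averaged 12.49 ± 0.44 in H/A, 11.93 ± 0.27 in Del, 11.77 ± 1.1 in Flox and 11.31 ± 0.21 in WT (SD, n = 4 each) and changed by 1.19 (adjusted p = 0.0647) in H/A against WT. Leaving out Flox replicate 1 changes the spread that all comparisons share: H/A against WT was then called for Cyp4a12a (adjusted p = 0.0365), Cyp4a12b (adjusted p = 0.0475) and Cyp4a14 (adjusted p = 0.0138). Del against Flox was then called for Cyp4a12a at -2.28 and Cyp4a12b at -2.36, and Cyp4a14 went to 0.64 beside 0.16 with that array, called in neither case.

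Among the other Cyp4 genes, Cyp4b1 fell by the largest amount. This enzyme oxidises short fatty acids and activates some protoxins. It had 6.59, 6.24, 5.88 and 5.6 in H/A and 4.6, 5.25, 5.27 and 5.77 in Del, against 6.05, 6.13, 6.67 and 6.57 in Flox and 6.55, 6.53, 6.3 and 6.66 in WT. All Del arrays lay below all Flox and WT arrays. Its change was -1.29 (95% interval -1.81 to -0.77, adjusted p = 0.003) in Del against WT, -1.13 (95% interval -1.65 to -0.61, adjusted p = 0.0045) in Del against Flox and -0.43 (95% interval -0.95 to 0.08, adjusted p = 0.22) in H/A against WT, where it was not called.

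The neighbouring pseudogene Cyp4b1-ps2 had 5.2, 4.61, 4.48 and 3.66 in H/A and 3.56, 4.07, 4.25 and 4.3 in Del, against 4.85, 4.49, 4.76 and 4.91 in Flox and 5.03, 5.03, 4.52 and 5.23 in WT, and fell in both Del comparisons (-0.91 (adjusted p = 0.0347) against WT and -0.71 (adjusted p = 0.0499) against Flox). How far its signal comes from Cyp4b1 transcripts was not tested. The call against WT was lost without WT replicates 1 or 4 or Del replicates 1, 2 or 3 (-0.98 to -0.74). The call against Flox was lost on leaving out any of 12 single arrays, which were H/A replicates 2 or 3, WT replicates 1, 2 or 4, any Del replicate and Flox replicates 1, 3 or 4 (-0.79 to -0.54).

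Of the Cyp4f genes, which inactivate leukotrienes and oxidise the far end of fatty acids, single members passed the threshold in single comparisons. Cyp4f14, the leukotriene B4 hydroxylase of mouse, had 10.45, 10.41, 8.99 and 10.69 in H/A and 9.63, 9.71, 9.98 and 10.35 in Del, against 9.65, 10.52, 10.55 and 10.39 in Flox and 10.83, 11.34, 10.84 and 10.75 in WT. It was called in Del against WT at -1.02 (adjusted p = 0.0453), but the Flox arrays also lay below all WT arrays, and Del against Flox gave -0.36 (adjusted p = 0.363), or -0.57 without Flox replicate 1. Leaving out any of 11 single arrays lost the call, which were H/A replicate 2, any WT replicate, Del replicates 1, 2 or 3 and Flox replicates 2, 3 or 4 (-1.08 to -0.89).

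Cyp4f13 had 10.61, 10.58, 10.43 and 10.39 in H/A and 10.37, 10.67, 10.6 and 10.74 in Del, against 10.43, 10.91, 11.12 and 10.87 in Flox and 11.07, 10.94, 11.04 and 11.01 in WT, and was called in H/A against WT at -0.51 (adjusted p = 0.0301). The H/A arrays lay below all WT arrays, but the direction turned to 0.07 when arrays were not scaled to each other, and the call was lost without H/A replicates 2, 3 or 4 or WT replicates 1, 3 or 4 (-0.54 to -0.48). Without Flox replicate 1 it was also called in Del against WT (-0.42) and in Del against Flox (-0.37, beside -0.24 with it). Cyp4f17 had 6.88, 6.65, 6.76 and 6.53 in H/A and 6.55, 6.89, 6.37 and 6.73 in Del, against 6.82, 7.21, 7.16 and 7.07 in Flox and 6.97, 7.13, 6.9 and 7.03 in WT. It was called in Del against Flox at -0.43 (adjusted p = 0.0251), which was lost without Del replicate 3 or Flox replicates 2 or 3 (-0.40 to -0.34). A second Cyp4f17 probe gave -0.20 there, and the mean of all kept probes gave -0.32, not called.

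The pseudogene Cyp4f41-ps had 7.15, 6.86, 6.7 and 7.21 in H/A and 6.65, 6.88, 6.75 and 7.01 in Del, against 7.37, 6.93, 7.39 and 7.39 in Flox and 6.97, 7.14, 7.39 and 7.31 in WT. Del and Flox arrays overlapped at Flox replicate 2. It was called in Del against Flox at -0.44 (adjusted p = 0.0369), lost without Del replicates 1 or 3 or Flox replicates 1, 3 or 4 (-0.42 to -0.39). Cyp4f15, Cyp4f16, Cyp4f18, Cyp4f37, Cyp4v3 and Cyp4x1 were called in no comparison, with changes of -0.21 to 0.38 in H/A against WT and -0.32 to -0.06 in Del against Flox. Without Flox replicate 1, Cyp4v3 had -0.49 in Del against Flox, beside -0.27 with it, and Cyp4f15 had -0.12, beside -0.06. The Cyp4f16 and Cyp4f18 probes share a run of 18 bases.

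Of the 2 Cyp1a genes tested, Cyp1a2 fell in all 3 comparisons and Cyp1a1 in Del against Flox, each by less than 1 log2 unit. Cyp1a2, which metabolises caffeine and aromatic amines, had 12.51, 12.33, 12.33 and 12.06 in H/A and 12.34, 12.75, 11.92 and 12.49 in Del, against 12.63, 12.97, 12.78 and 12.93 in Flox and 13.18, 12.78, 12.75 and 12.94 in WT. The H/A arrays lay below all WT arrays, and Del replicate 2 overlapped with Flox and reached the lower end of WT. Its changes were -0.61 (95% interval -0.96 to -0.25, adjusted p = 0.0347) in H/A against WT, -0.54 (95% interval -0.90 to -0.18, adjusted p = 0.0464) in Del against WT and -0.45 (95% interval -0.81 to -0.09, adjusted p = 0.0485) in Del against Flox. In H/A against WT the change was -0.07 and not called when arrays were not scaled to each other, and the call was lost without H/A replicates 2, 3 or 4 or WT replicates 1, 3 or 4 (-0.66 to -0.52). In Del against WT it was lost for 11 single arrays, which were H/A replicates 2 or 3, WT replicates 1, 3 or 4, Del replicates 1, 3 or 4 and Flox replicates 2, 3 or 4 (-0.59 to -0.39). In Del against Flox it was lost for 12, which were H/A replicates 1, 2 or 3, WT replicates 3 or 4, Del replicates 1, 3 or 4 and any Flox replicate (-0.52 to -0.30).

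Cyp1a1 had 9.49, 9.29, 9.1 and 8.63 in H/A and 9.23, 9.54, 8.76 and 9.09 in Del, against 9.66, 10.12, 9.63 and 9.82 in Flox and 10.05, 9.51, 9.57 and 9.64 in WT. It was called in Del against Flox at -0.65 (adjusted p = 0.0257), and this was lost without Del replicates 3 or 4 or Flox replicates 2 or 4 (-0.64 to -0.52). In H/A against WT the arrays did not overlap but the change, -0.56 (adjusted p = 0.0797), was not called. Cyp1b1 was above background on 2 of 16 arrays and was not tested.

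The Cyp1a1 promoter window is shown because the gene is a textbook target of the aryl hydrocarbon receptor. Capitals mark GCGTG on either strand, the core of the xenobiotic response element that the aryl hydrocarbon receptor binds, which stood in 32.4% of all windows. The window held 1 match, at -54, and the Cyp1a2 window held none.
Cyp1a1 (chr9:57697363-57697662, plus strand): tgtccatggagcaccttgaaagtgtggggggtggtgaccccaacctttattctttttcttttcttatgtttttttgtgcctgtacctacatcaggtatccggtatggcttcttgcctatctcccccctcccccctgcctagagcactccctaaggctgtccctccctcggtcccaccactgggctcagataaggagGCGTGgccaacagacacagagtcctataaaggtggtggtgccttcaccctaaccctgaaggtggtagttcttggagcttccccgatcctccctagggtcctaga

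Of the retinoic acid hydroxylases, Cyp26a1 was called lower in all 3 comparisons and Cyp26b1 in Del against WT only. Cyp26a1, whose transcription is raised by retinoic acid itself, had 1.36, 1.35, 2.08 and 3.23 in H/A and 1.35, 2.34, 1.62 and 1.29 in Del, against 2.96, 3.31, 3.14 and 2.92 in Flox and 5.99, 3.56, 3.95 and 4.63 in WT. The probe was well above background on 3 WT arrays and 1 H/A array and on no Del or Flox array, so low values are limits of the array rather than levels. All H/A and Del arrays lay below all WT arrays. By the values used here, Cyp26a1 was at least 1.96-fold lower in Del than in WT (adjusted p = 0.00102). For this bound Del was set at the dimmest signal that counted as above background. It was also called lower in H/A against WT (adjusted p = 0.00409), where 1 of 4 H/A arrays measured it, so no size is given. These sizes depend on how background is treated: with normexp correction the log2 change was -0.51 in Del against WT and -0.44 in H/A against WT, both called, and -0.15 in Del against Flox, not called. Del and Flox were both below background, so the call between them (adjusted p = 0.0308) is given without a fold. It was lost without Del replicates 1, 3 or 4 or Flox replicates 1, 2 or 3 (-1.48 to -1.31). Flox against WT was not called for Cyp26a1 (adjusted p = 0.802), so no fold is given.

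The Cyp26a1 window is shown for its retinoic acid response element. Capitals mark each match to AGNTCA on either strand. There were 2, in tandem with 5 bases between them and starting at -32, an arrangement found in 67 of 32851 windows (0.204%). It is the spacing that retinoic acid receptors are known to bind.
Cyp26a1 (chr19:37697558-37697857, plus strand): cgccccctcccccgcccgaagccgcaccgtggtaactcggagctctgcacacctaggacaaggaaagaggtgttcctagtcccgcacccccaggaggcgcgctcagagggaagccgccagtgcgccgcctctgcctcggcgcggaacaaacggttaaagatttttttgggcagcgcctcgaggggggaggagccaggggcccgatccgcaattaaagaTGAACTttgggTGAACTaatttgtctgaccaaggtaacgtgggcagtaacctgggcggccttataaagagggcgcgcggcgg

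Cyp26b1, the second retinoic acid hydroxylase, had 4.77, 7.07, 7.22 and 6.14 in H/A and 6.02, 4.24, 4.98 and 4.28 in Del, against 6.19, 5.65, 6.15 and 6.37 in Flox and 7.28, 5.88, 6.42 and 6.7 in WT. It fell in Del against WT (-1.69 (95% interval -2.74 to -0.64, adjusted p = 0.0342)) but was -0.27 (adjusted p = 0.718) in H/A against WT, where H/A replicate 1 alone was below all WT arrays. Del against Flox gave -1.21 (adjusted p = 0.0651). The call was lost without WT replicates 1, 3 or 4 or Del replicates 2, 3 or 4 (-1.74 to -1.45). Cyp26c1 was at background on all 16 arrays.

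Cyp27b1, which makes the active form of vitamin D and works mainly in kidney, had 6.64, 6.37, 6.37 and 6.49 in H/A and 6.53, 6.66, 6.39 and 6.5 in Del, against 6.87, 6.6, 6.84 and 6.8 in Flox and 6.57, 7.31, 6.94 and 6.91 in WT. It was called in H/A against WT at -0.46 (adjusted p = 0.0487), although WT replicate 1 lay within the H/A range, and the direction turned to 0.02 when arrays were not scaled to each other. Leaving out any of 13 single arrays lost the call, which were H/A replicates 2, 3 or 4, WT replicates 2, 3 or 4, Del replicates 1, 2 or 4 and any Flox replicate (-0.47 to -0.34). Cyp24a1, which breaks vitamin D down, was above background on 2 of 16 arrays.

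Of 5 enzymes of steroid hormone synthesis, 4 were tested, and Cyp11a1, Cyp11b1 and Cyp17a1 fell in Del against Flox. Cyp11a1, which cleaves the side chain of cholesterol, had 4.95, 4.92, 4.71 and 5.29 in H/A and 4.65, 5.15, 4.51 and 5.13 in Del, against 5.48, 5.37, 5.33 and 5.34 in Flox and 5.3, 4.99, 5.27 and 5.15 in WT. Cyp11b1, which completes glucocorticoid synthesis in the adrenal cortex, had 6.02, 5.99, 5.76 and 5.82 in H/A and 5.97, 5.62, 5.12 and 5.53 in Del, against 6.48, 6.43, 6.12 and 6.15 in Flox and 6.39, 6.04, 5.94 and 5.42 in WT. Both were lower on all Del arrays than on all Flox arrays and overlapped with WT. Both fell in Del against Flox, where the change was -0.52 (adjusted p = 0.0237) for Cyp11a1 and -0.73 (adjusted p = 0.0142) for Cyp11b1.

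Cyp17a1, known as female-biased in mouse liver, had 8.6, 8.25, 8.5 and 8.12 in H/A and 8.42, 8.3, 7.81 and 8.06 in Del, against 8.98, 8.54, 8.58 and 8.49 in Flox and 8.63, 8.08, 8.64 and 8.39 in WT. It fell in Del against Flox, with a change of -0.50 (adjusted p = 0.0395), and was -0.07 in H/A against WT. The Cyp11a1 call was lost without Del replicates 1 or 3 or Flox replicate 1 (-0.48 to -0.40), that of Cyp11b1 without Del replicate 3 (-0.59), and that of Cyp17a1 without Del replicates 3 or 4 or Flox replicates 1 or 3 (-0.52 to -0.39). Of the adrenal cortex markers, Star and Mc2r were below background on all 16 arrays, and the summed signal of the other 4 was 1827 to 2716 in H/A, 1452 to 1957 in Del, 1316 to 1957 in Flox and 1986 to 2527 in WT. Cyp21a1 was called in no comparison (-0.38 in H/A against WT and -0.59 in Del against Flox), although without Flox replicate 1 it was called in Del against Flox at -0.96, and Cyp11b2 was at background on all arrays.

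Cyp20a1, an orphan P450 without an established substrate, was the only called member outside the Cyp3a genes that rose. It had 4.89, 5.68, 5.66 and 5.48 in H/A and 5.66, 5.53, 5.79 and 5.52 in Del, against 4.75, 5.29, 5.0 and 5.14 in Flox and 4.83, 5.56, 5.04 and 5.48 in WT, and changed by 0.58 (adjusted p = 0.0364) in Del against Flox, with a second probe at 1.14. All Del arrays lay above all Flox arrays. The call was lost without Del replicates 1, 3 or 4 or Flox replicates 1, 3 or 4 (0.48 to 0.61). Cyp4f39 and Cyp4f40 were the remaining untested members.

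**Figure D4:**
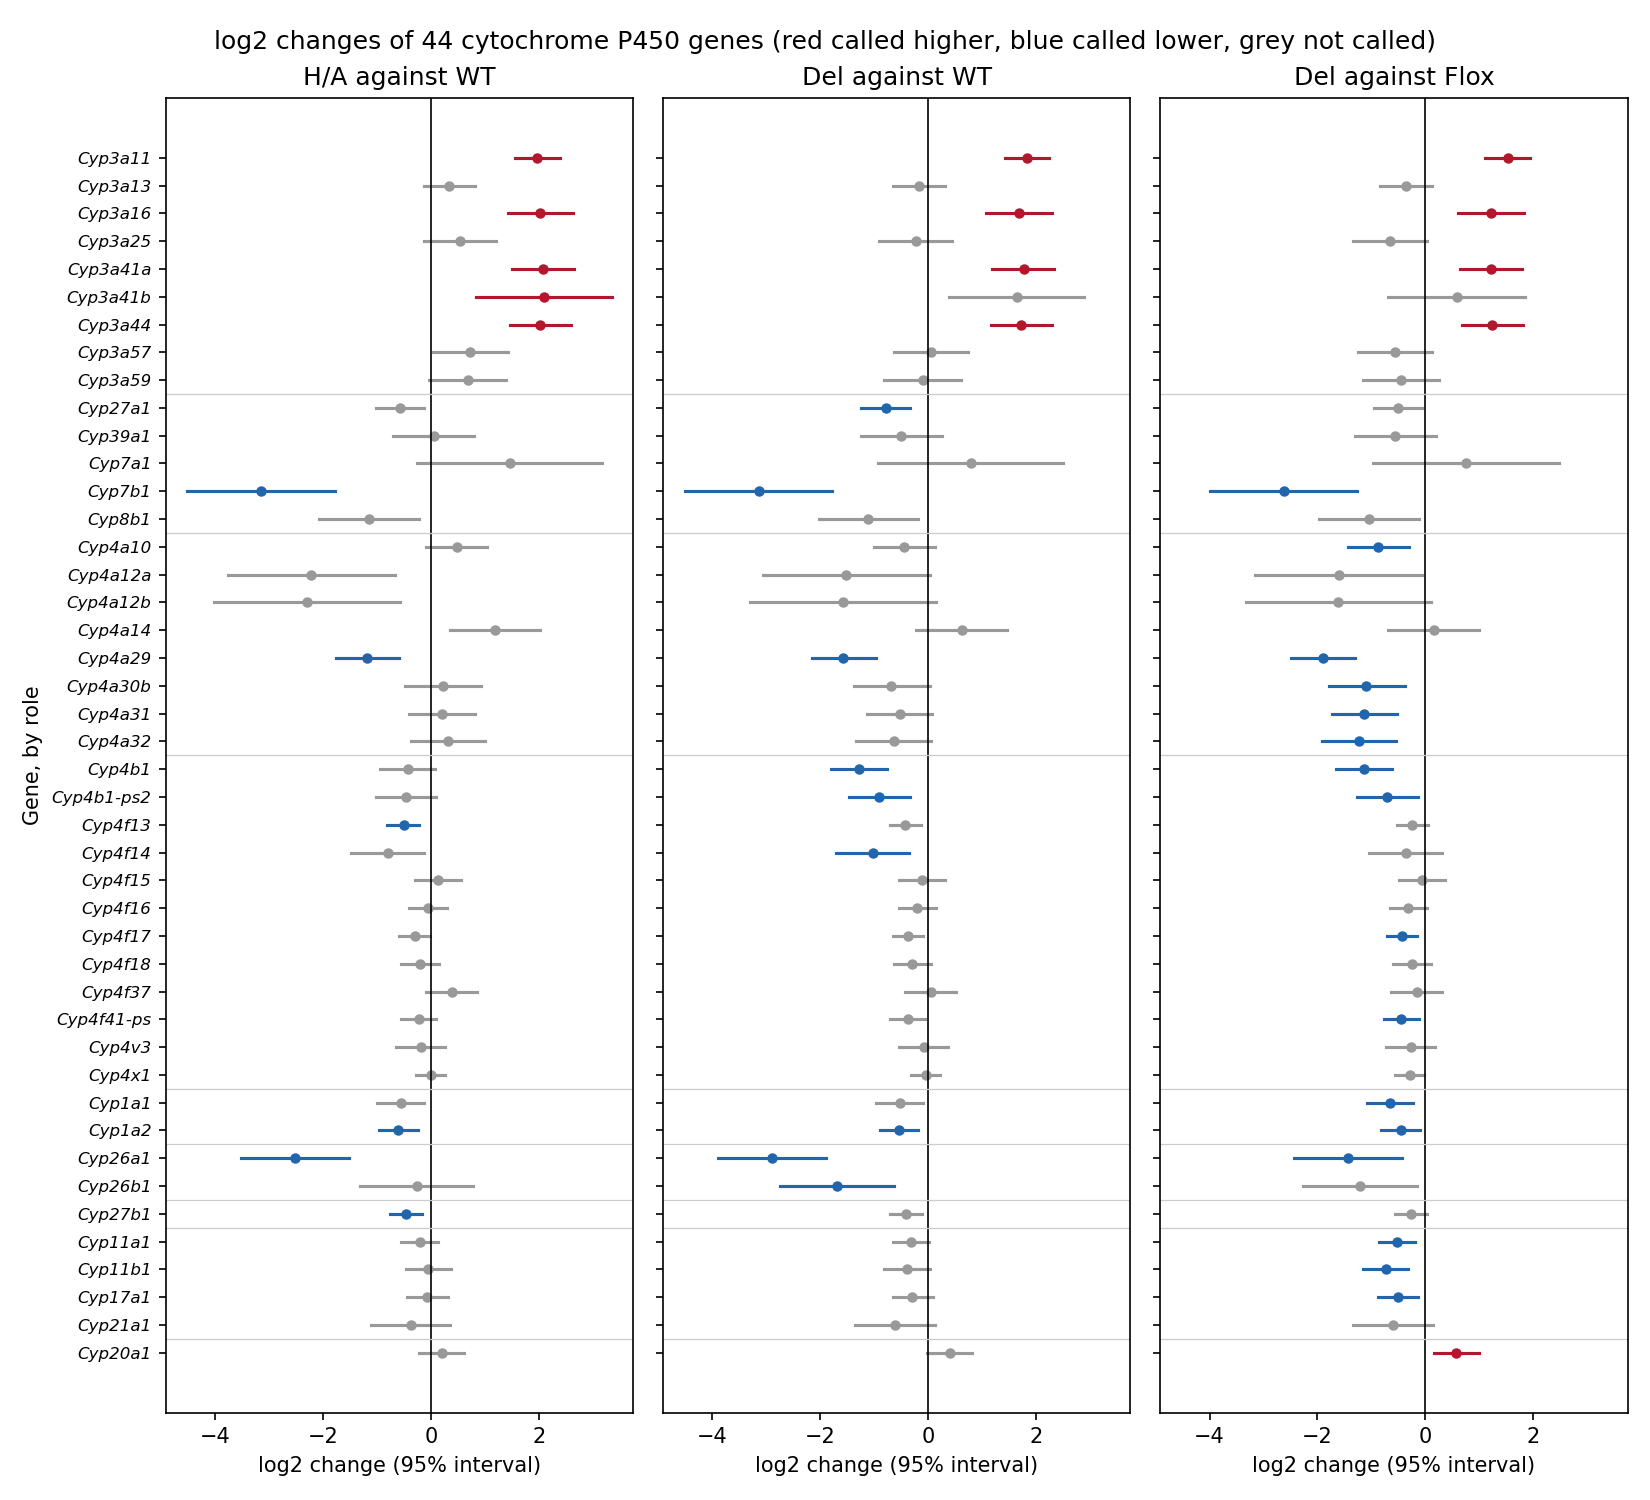
log2 change and 95% interval of the 44 tested genes in H/A against WT, Del against WT and Del against Flox, with genes grouped by role. Red and blue mark genes called higher and lower at an adjusted p under 0.05, and grey the rest. In all 3 panels Cyp3a11, Cyp3a16, Cyp3a41a and Cyp3a44 are red and Cyp7b1, Cyp4a29, Cyp26a1 and Cyp1a2 are blue. Cyp26a1 was well above background on no Del or Flox array, and each Cyp1a2 call was lost on leaving out certain single arrays.

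Whether the mutant lines differed from each other was tested directly. In H/A against Del 0 of 44 members were called in limma, beside 0.0127% of all genes, and 9 had an unadjusted p under 0.05. They were Cyp4b1, Cyp4a10, Cyp4a30b, Cyp4a31, Cyp4a32, Cyp26b1, Cyp3a13, Cyp3a25 and Cyp3a59, all with higher means in H/A, from 0.52 (Cyp3a13) to 1.42 (Cyp26b1). The intervals were 0.35 to 1.48 for Cyp4a10 and 0.34 to 1.37 for Cyp4b1, the pair with the smallest p, at an adjusted p of 0.475 and 0.462. For Cyp7b1 the difference was -0.01 (95% interval -1.38 to 1.35) and for Cyp3a11 0.14 (95% interval -0.28 to 0.55). The Cyp7b1 interval rests on the spread that all groups share, where its SD was 1.98 in Flox, beside 0.15 in H/A and 0.09 in Del.

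The difference between the effect of H/A over WT and that of Del over Flox was called for 0 members, beside 0.00318% of all genes, with 10 at an unadjusted p under 0.05. For Cyp4a32 it was 1.54 (95% interval 0.57 to 2.52), for Cyp4a10 1.34 (95% interval 0.55 to 2.14) and for Cyp3a57 1.29 (95% interval 0.32 to 2.27), with adjusted p-values of 0.6, 0.6 and 0.62. So the calls of Cyp4a10, Cyp4a30b, Cyp4a31 and Cyp4a32 in Del against Flox were not shown to differ from their changes in H/A against WT. Between the control lines, Flox against WT, 0 members were called, beside 0.0222% of all genes, and 1 had an unadjusted p under 0.05, which was Cyp26a1 (-1.45).

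The partners and regulators of these enzymes were read from lists written down with earlier results of these data known. Their counts are to be read against the shares of all genes, which were 7.08% higher and 2.97% lower in H/A against WT, 8.85% and 4.38% in Del against WT and 16.6% and 18.2% in Del against Flox. Of 20 tested genes that pass electrons to P450 enzymes or make and break haem, 2 were higher and 1 lower in H/A against WT, 3 rose and 0 fell in Del against WT and 4 rose and 0 fell in Del against Flox, with rises near the share of all genes in H/A against WT and in Del against Flox. Hmox1, the haem-degrading oxygenase, changed by 1.89 (adjusted p = 0.0052) in H/A against WT and 2.23 (adjusted p = 0.000852) in Del against Flox. Cyb5a, an electron carrier, rose in H/A against WT (0.57) and Uros, of haem synthesis, fell (-0.44). Alad, an early enzyme of haem synthesis, rose in Del against Flox (0.66) with 0.12 in H/A against WT, and Fdx2, a ferredoxin, rose in Del against Flox (0.49).

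Of 27 tested regulators, 2 rose and 2 fell in each mutant line against WT, and 5 rose and 5 fell in Del against Flox, where these shares were near those of all genes. Ahr, the aryl hydrocarbon receptor, rose by 0.96 (adjusted p = 0.00959) in H/A against WT and 1.15 (adjusted p = 0.00148) in Del against Flox. Ghr, the growth hormone receptor, fell, with changes of -0.80 (adjusted p = 0.0326) and -0.83 (adjusted p = 0.013). Rarg, a retinoic acid receptor, rose by 0.79 (adjusted p = 0.0174) and 1.11 (adjusted p = 0.00105).

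Among 11 tested other targets of the aryl hydrocarbon receptor, 5 rose and none fell in each mutant line against WT, and 5 rose and 1 fell in Del against Flox, while Cyp1a2 fell. Those that rose included Gsta1 (4.21 and 4.12), Gsta2 (4.02 and 4.03) and Htatip2 (1.38 and 1.03). Nqo1 rose by 2.09 in H/A against WT and 2.68 in Del against Flox. Gsta1, Gsta2 and Nqo1 are glutathione transferases and a quinone reductase that are also known targets of NRF2.

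Of 16 tested genes of retinoid handling, 5 rose and none fell in H/A against WT, 5 rose and 1 fell in Del against WT, and 6 rose and 1 fell in Del against Flox. Aldh1a7, a relative of the retinal dehydrogenases, rose by 0.90 in H/A against WT and 0.72 in Del against Flox. Lpl, a lipase that also takes up retinyl esters from lipoproteins, rose by 1.92 and 2.27. The median log2 change of the list was 0.18, 0.17 and 0.30 in the 3 comparisons.

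Of 22 tested other targets of PPAR alpha, 7 rose and none fell in H/A against WT, 4 rose and 1 fell in Del against WT, and 3 rose and 3 fell in Del against Flox. Cd36, a fatty acid transporter, rose by 1.14 and 1.08, and Acadm, of mitochondrial fatty acid oxidation, by 0.90 and 0.66. Cpt1a, which admits fatty acids to mitochondria, rose in H/A against WT (0.87) and had 0.53 (adjusted p = 0.0562) in Del against Flox. Plin2, a lipid droplet coat protein, rose by 1.75 in Del against Flox and Acsl1, an acyl-CoA synthetase, fell (-1.02).

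Of 13 other tested enzymes of bile acid synthesis, 0 were called in H/A against WT, 2 fell in Del against WT, and 1 rose and 3 fell in Del against Flox. Slc27a5, the bile acid-CoA ligase, fell in Del against Flox, with a change of -0.75 (adjusted p = 0.00701), and had -0.51 (adjusted p = 0.0704) in H/A against WT. Slc27a2, a related ligase, fell (-0.46) and Acox2, the peroxisomal oxidase of bile acid precursors, rose (0.78) in Del against Flox. In H/A against WT the smallest p-values besides Slc27a5 were those of Amacr (-0.33 (adjusted p = 0.0834)) and Hsd17b4 (0.37 (adjusted p = 0.0838)), neither called.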

How the data were processed

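Liver RNA was labelled with Cy3, per the labels, and hybridised to 1-colour arrays. The submitters' processing notes name Agilent Feature Extraction 11 and Partek. Scanner intensity values had been background-subtracted per the file headers. The deposited log2 values had been quantile normalised by the authors, since all 16 columns had a median of 4.36 and differed by at most 0.0063 from values recomputed here. For 6 samples the listed scanner file was not the labelled array (r from -0.3 to 0.168, against 0.885 to 0.996 for the labelled one).

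The filter on dim probes kept 37819, those flagged above background on 4 or more arrays; the brightest probe stood for a gene (31484 genes), and all 16 arrays were fitted with limma 3.58.1 in R 4.3.3 as 4 group means, with Benjamini-Hochberg adjustment over all genes. Names came from RefSeq transcripts of GRCm38.p6, and promoter windows were aligned in pairs with Biopython 1.88. Values at array level were given for members called in H/A against WT, Del against WT or Del against Flox and for the bile acid genes, and from each pathway list the 3 smallest p in H/A against WT and in Del against Flox, apart from 1 gene that is not reported here. The procedure was tested on simulated data. Members and lists were chosen with earlier results of these data known. Alternatives covered scaling, background correction, probe filter and choice, slide as a block, moderation and leaving out each array. Precision is limited by 4 arrays per group.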

Additional observations from a re-analysis of the deposited data

Results flagged for a closer look

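In 8 of 176 sets of 4 arrays, 1 array lay far from the other 3 by Dixon's test at the 95% level. Chance alone gives about 1 in 20. Of these, 3 were Flox replicate 1. Cyp7b1 was 6.87 there, below the next Flox array at 10.53. Cyp3a11 was 14.33 there, above the next at 13.37, and Cyp3a57 was 10.03, above the next at 8.71. Cyp4f14 appeared in 2 groups, low in H/A replicate 3 at 8.99 (next 10.41) and high in WT replicate 2 at 11.34 (next 10.84). The others were Cyp4a12b in WT replicate 3 at 10.70 (next 11.19), Cyp4f41-ps in Flox replicate 2 at 6.93 (next 7.37) and Cyp4v3 in Del replicate 1 at 11.25 (next 11.78). What sets these arrays apart was not tested.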

How the results depend on the processing

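The members called in H/A against WT (11, with 5 higher and 6 lower) were 21 without scaling between arrays (19 higher, 2 lower), 9 with label-paired scanner files (5 higher, 4 lower), 0 with scanner files as listed, 0 within slide 1 and 5 within slide 2. Those in Del against WT (13, with 4 higher and 9 lower) were 9 without scaling (4 higher, 5 lower), 0 with files as listed, 6 with the slide of the listed file as a block and 0 within slide 1. Those in Del against Flox (21, with 5 higher and 16 lower) were 10 without scaling (4 higher, 6 lower), 0 with files as listed and 0 within slide 1. Without scaling, the median of all genes was 0.37 in H/A against WT, beside -0.09. Slide 1 held 3 H/A, 1 Del, 2 Flox and 2 WT arrays, so a test within it has few arrays. Leaving out 1 array gave 6 to 15, 8 to 15 and 11 to 22 called members in the 3 comparisons. The lowest counts came without H/A replicate 2 or WT replicate 4 (6 each), without H/A replicate 3 or WT replicate 3 (7 each), without WT replicate 4 or Del replicate 3 (8 each) and without Del replicate 3 (11). The counts of 0 in Flox against WT, H/A against Del and the difference of effects stayed 0 in every alternative run. The difference of effects cannot be fitted on 2 groups. Without scaling, the falls of Cyp27b1 and Cyp4f13 in H/A became 0.02 and 0.07. Within slide 1, where no member was called, Cyp3a11 had 1.98 and Cyp7b1 -3.25 in H/A against WT, beside 2.05 and -2.96 within slide 2. No paired analysis was possible because the labels carry no replicate numbers that could pair mice across groups. The cause of these shifts was not tested.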
